A study of Mus musculus with 16 samples.

Results

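Expression of 43 genes of the cell division cycle and of DNA replication was followed in muscle and fat of mice labelled as lacking MyD88 in muscle. The genes are a list of well-known cycle genes, chosen with earlier results of these data known. They were found by symbol among the 55536 genes counted in the series, and each symbol matched 1 gene. Symbols came from the GENCODE M21 annotation of the mouse genome build GRCm38. By the step at which their products are best known to act, 12 were placed in S phase and 31 in G2 and mitosis (G2/M).

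Total RNA of 2 tissues of female mice was sequenced, the red (oxidative) part of the gastrocnemius, a muscle of the calf, and visceral fat. Toll-like receptors and receptors of the interleukin-1 family pass their signals on through MyD88, an adaptor protein. The 4 knockouts are labelled Conditional MusMyD88-/- and the 4 controls Cre-Control, and all 8 mice had 5 weeks of wheel running and then 8 days in a small cage that restricted movement. The subject numbers of both tissues match, which gives 16 libraries in 4 groups of 4 mice. The promoter that drives Cre, the deleted part of Myd88, the alleles the controls carry beside Cre and the age of the mice are not given in the labels. The title of the series names fat gain during inactivity in females as its subject.

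Total counts were 15203806 to 21747345 per library in muscle and 13242243 to 19114782 in fat, of which the 43 genes took 1269 to 2033 counts in muscle and 3404 to 6464 in fat. Myd88 averaged 1.94 ± 0.20 CPM (counts scaled by library size with TMM factors) in knockout muscle and 2.67 ± 0.64 CPM in control muscle (SD, n = 4 each), and the difference did not pass the test (log2 fold change -0.47, edgeR adjusted p = 0.949). In fat, Myd88 averaged 15.6 ± 1.26 CPM in knockouts and 16.4 ± 1.28 CPM in controls. The fat library of control mouse 138, 138-V, stands apart from the other 7 fat libraries. Summed markers of smooth muscle reached 23450.2 CPM of total counts there, against 436 to 1123 CPM in the others, and summed adipocyte markers 7028 CPM, against 21980 to 30915 CPM. Fat was therefore compared with and without this library. Summed markers of skeletal muscle fibres were at 334863 to 365168 CPM of total counts in muscle libraries and 1185 to 16956 CPM in fat libraries. The labels name the replicates by mouse only, so p-values measure the spread between these mice.

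A cell that divides loads the MCM helicase onto its replication origins, copies its DNA in S phase around the sliding clamp PCNA, and then turns on Cdk1 with the A and B cyclins to enter mitosis. The genes are transcribed in waves, and E2F factors are known to drive those of S phase. The MuvB complex with B-Myb and FoxM1 is known to drive those of G2/M. It acts through promoter elements called CHR (cell cycle genes homology region). CCAAT boxes are a separate kind of promoter element. Mature muscle fibres and adipocytes have left the cycle, so in these tissues cycle transcripts are known chiefly from resident cells that still divide.

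Promoter sequences of 6 members are shown as chosen examples, because the phases differ in the elements they hold. Cdk1, Prc1, Kif23 and Mki67 had the smallest p values of the G2/M members in fat without 138-V, Rrm2 had the smallest of the S members, and Mcm5 is an S member with E2F elements. Each is a RefSeq window of 300 bases, 250 before and 50 after a RefSeq transcript start, 5′ to 3′ on the gene's strand, in GRCm38.p6. The Mcm5 window ends before the start that GENCODE M21 gives this gene, base 75109569, so it holds no base of the gene as counted here. Capitals mark 3 kinds of element, searched as exact letters on both strands. The CHR was spelled TTTGAA, with TTCGAA as its variant. The second kind was the CCAAT box. E2F elements were spelled TTTCCCGC, TTTGGCGC, TTTGCCGC or TTTCGCGC. Runs of capitals that spell ATTGG are CCAAT boxes of the opposite strand, and longer runs hold elements that overlap or adjoin. The windows are chr10:69352863-69353162, minus strand for Cdk1, chr7:80294201-80294500, plus strand for 1 of 2 Prc1 starts, chr9:61946750-61947049, minus strand for Kif23, chr7:135716330-135716629, minus strand for Mki67, chr12:24708004-24708303, plus strand for Rrm2 and chr8:75109259-75109558, plus strand for Mcm5.
Cdk1: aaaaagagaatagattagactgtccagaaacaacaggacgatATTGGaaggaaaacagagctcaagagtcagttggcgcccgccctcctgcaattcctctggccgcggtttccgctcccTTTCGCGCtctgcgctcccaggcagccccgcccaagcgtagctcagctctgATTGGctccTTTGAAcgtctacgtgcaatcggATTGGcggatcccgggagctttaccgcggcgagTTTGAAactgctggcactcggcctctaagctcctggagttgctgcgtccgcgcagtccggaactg
Prc1: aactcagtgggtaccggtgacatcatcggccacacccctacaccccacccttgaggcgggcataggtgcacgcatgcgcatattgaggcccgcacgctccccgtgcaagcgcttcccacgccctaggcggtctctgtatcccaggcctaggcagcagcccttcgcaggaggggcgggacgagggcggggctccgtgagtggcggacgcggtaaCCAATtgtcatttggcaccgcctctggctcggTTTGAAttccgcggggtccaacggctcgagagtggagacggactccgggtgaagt
Kif23: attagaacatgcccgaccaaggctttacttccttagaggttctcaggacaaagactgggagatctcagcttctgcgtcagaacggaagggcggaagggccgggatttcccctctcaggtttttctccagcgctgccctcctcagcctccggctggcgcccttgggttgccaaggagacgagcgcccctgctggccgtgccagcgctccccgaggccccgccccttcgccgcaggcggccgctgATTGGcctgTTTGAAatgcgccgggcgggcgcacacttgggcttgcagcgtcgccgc
Mki67: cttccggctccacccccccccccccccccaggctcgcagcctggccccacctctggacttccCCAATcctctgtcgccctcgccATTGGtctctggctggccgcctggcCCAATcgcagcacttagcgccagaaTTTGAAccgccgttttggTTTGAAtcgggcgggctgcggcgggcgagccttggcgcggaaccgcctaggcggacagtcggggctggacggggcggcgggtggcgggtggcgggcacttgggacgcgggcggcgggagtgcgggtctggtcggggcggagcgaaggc
Rrm2: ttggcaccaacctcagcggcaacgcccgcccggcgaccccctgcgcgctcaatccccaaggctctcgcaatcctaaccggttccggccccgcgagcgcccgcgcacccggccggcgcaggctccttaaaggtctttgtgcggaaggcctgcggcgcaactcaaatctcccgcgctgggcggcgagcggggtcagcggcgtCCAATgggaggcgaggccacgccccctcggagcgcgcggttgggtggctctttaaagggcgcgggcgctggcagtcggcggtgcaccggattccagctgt
Mcm5: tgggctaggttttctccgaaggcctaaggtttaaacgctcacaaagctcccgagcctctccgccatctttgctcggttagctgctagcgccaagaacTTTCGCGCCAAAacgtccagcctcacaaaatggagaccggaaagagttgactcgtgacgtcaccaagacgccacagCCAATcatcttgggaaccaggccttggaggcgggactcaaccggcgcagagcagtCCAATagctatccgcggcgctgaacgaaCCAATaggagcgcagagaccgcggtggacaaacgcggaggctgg

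These chosen windows show the elements letter by letter. Those of Cdk1 and Mki67 hold 2 CHR elements each, while those of Prc1 and Kif23 hold 1, and those of Rrm2 and Mcm5 hold none. In the Mcm5 window 2 E2F elements of opposite strands overlap in 1 run of capitals. A promoter entry was given for 37 of the 43 members, 11 of S phase and 26 of G2/M. A CHR element was found in 21 of these 26 G2/M members (80.8%) and 2 of the 11 S members (18.2%), against 21.7% of all 27025 genes with an entry. A CCAAT box was found in 80.8% of the G2/M members and 72.7% of the S members, against 41.1% of all genes, and CHR and CCAAT together in 73.1% and 18.2%, against 9.65% of all genes. E2F elements showed the opposite order, with 4 of 11 S members (36.4%; Mcm3, Mcm5, Mcm6 and Mcm7) and 1 of 26 G2/M members (3.85%; Cdk1), against 2.60% of all genes. A gene was counted if any of its windows held the element, and for Mcm7 only 1 of 2 windows held E2F and CHR elements. The windows of E2f1, Mcm7 and Cdca8 lie inside the gene as counted here, after its GENCODE M21 start. These matches describe letters in a window of fixed length and no binding was measured. Mcm4, Foxm1, Ccna2, Kif20a, Aurkb and Tpx2 are named only.

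In visceral fat, 30 of the 31 G2/M and all 12 S members had a log2 fold change below 0 for knockouts over controls, and none passed the adjusted test in edgeR. Without 138-V, these 42 of the 43 members lay below 0 (48.4% of all 16579 genes tested were), with a median of -0.89 over the 31 G2/M members and -0.22 over the 12 S members, against 0.01 over all genes. With all 8 libraries, 42 of 43 were again below 0 (52.1% of 16323 genes), with medians of -0.86 for G2/M and -0.30 for S, against -0.01 for all genes. No member passed an adjusted p of 0.05 in edgeR's quasi-likelihood test in either set, in which 6 genes (0.0362%) and 1 gene (0.00613%) of all genes tested passed. At an unadjusted p under 0.05, 26 of 31 G2/M and 4 of 12 S members were lower without 138-V, against 8.72% of all genes, and 16 of 31 and 3 of 12 with all libraries, against 4.1% of all genes. No member was higher at that level in either set, against 7.85% and 3.9% of all genes. The phases were not tested against each other, and both fat comparisons share their knockouts and 3 controls. The list was chosen with earlier results of these data known, so its shares beside those of all genes are descriptions and no test. In bulk tissue, fewer dividing cells and less of each transcript per cell cannot be told apart.

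Whether a member was called depended on the tool. DESeq2 gave an adjusted p under 0.05 to Cdk1, Kif23, Prc1, Mki67 and Top2a without 138-V, all lower, where it called 1.45% of all genes lower, and to Prc1 alone with all libraries, where it called 0.166% lower. Without 138-V, edgeR with no filter on low counts called Cdk1 and Prc1 (0.309% of all genes lower), and 1 fit of both tissues called Prc1 (0.2%). Limma voom called no member in either set.

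**Figure D1:**
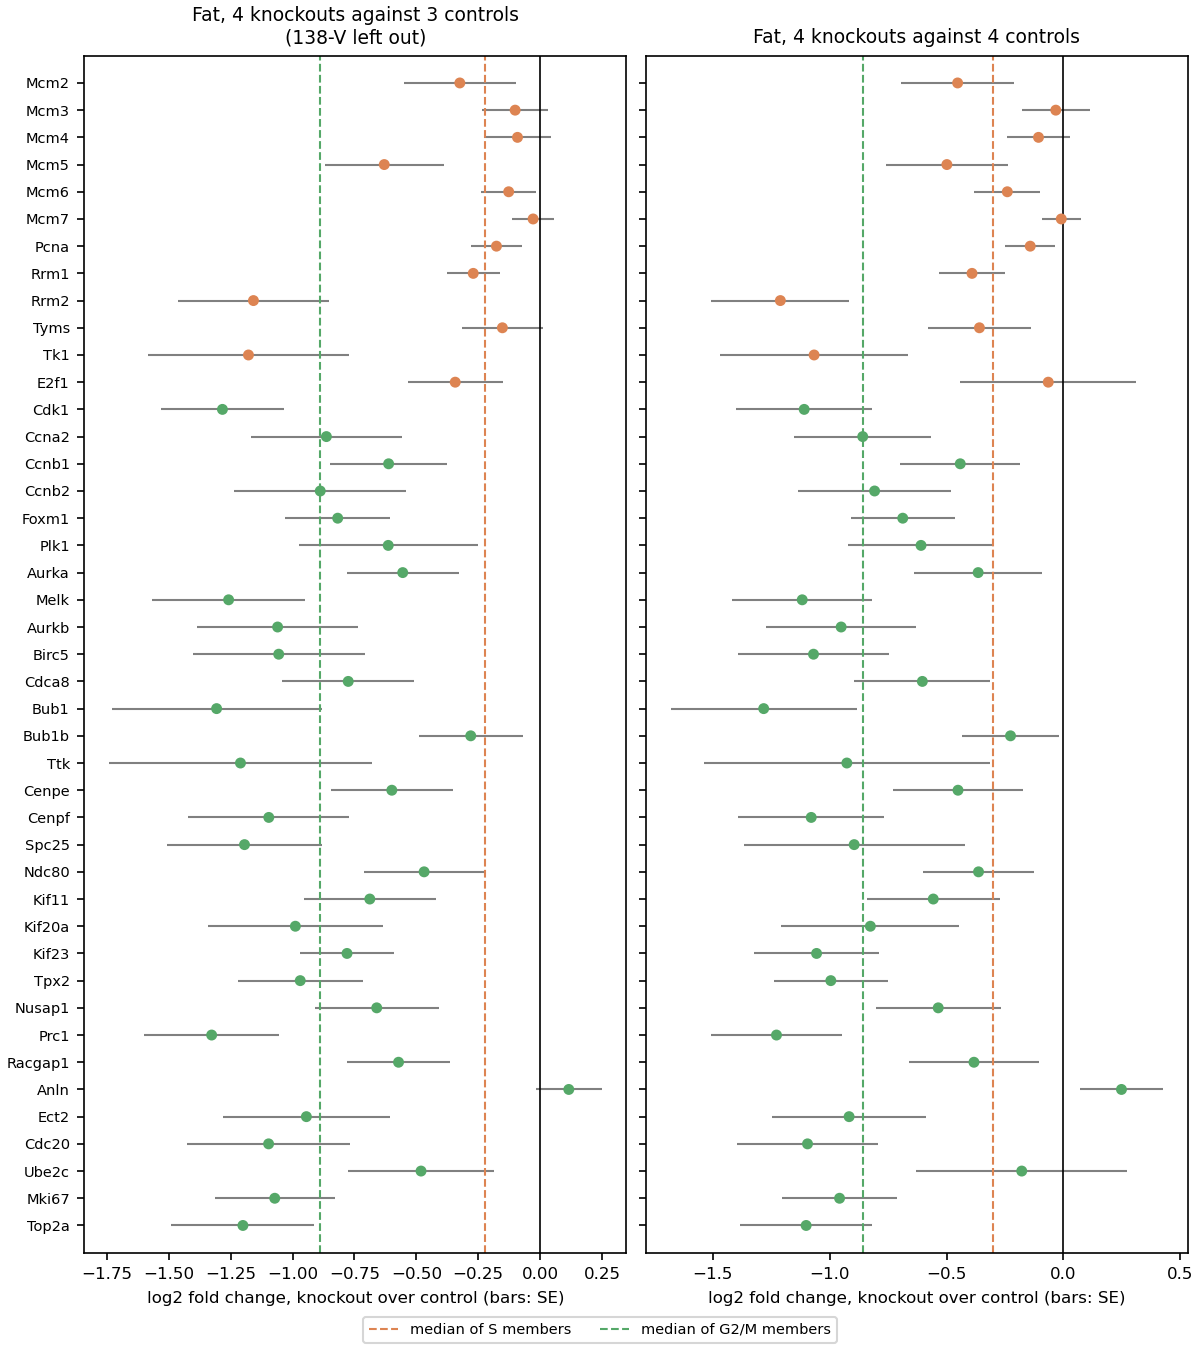
Log2 fold change of each of the 43 members in visceral fat, knockout over control, with its SE, without library 138-V on the left and with all 8 libraries on the right. Orange points are S members and green points G2/M members, and dashed lines mark the median of each phase (-0.22 and -0.89 on the left, -0.30 and -0.86 on the right). Anln is the 1 member above 0 in both.

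Values of single libraries are given in CPM for knockouts 139, 958, 960 and 29 and for controls 131, 137, 138 and 11, in this order, and fold changes and p values are those without 138-V. Cdk1, the kinase whose activation starts mitosis (ENSMUSG00000019942, chr10:69335146-69352938), was at 2.13, 1.46, 1.36 and 1.73 CPM in knockout fat, against 5.24, 3.76, 2.25 and 3.15 CPM in control fat (log2 fold change -1.28, SE 0.25, edgeR adjusted p = 0.140). All 4 knockouts lay below all 4 controls, and control 131 was the highest library. Its cyclin partners had log2 fold changes of -0.86 for Ccna2, -0.61 for Ccnb1 and -0.89 for Ccnb2, and Ccnb1 did not overlap between knockouts and the 3 controls other than 138.

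The transcription factor gene Foxm1, which drives part of the G2/M wave, was at 1.63, 1.76, 1.30 and 1.30 CPM in knockouts and 2.89, 2.51, 1.75 and 2.48 CPM in controls (log2 fold change -0.82, SE 0.21, edgeR adjusted p = 0.170). Knockout 958 and control 138 were nearly level, and the other 3 controls were above every knockout. Plk1, the polo-like kinase needed for spindle assembly, was at 0.708, 0.658, 0.884 and 0.680 CPM in knockouts and 1.71, 0.975, 1.12 and 0.669 CPM in controls, with overlapping groups (adjusted p = 0.422). The kinases Aurka and Melk had log2 fold changes of -0.56 and -1.26, and in both the 4 knockouts lay below the 3 controls other than 138.

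The chromosomal passenger complex corrects the attachment of chromosomes to the spindle, and its 3 measured genes had log2 fold changes of -1.06 (Aurkb, its kinase), -1.06 (Birc5, survivin) and -0.78 (Cdca8, borealin). Aurkb was at 1.42, 0.658, 0.766 and 1.36 CPM in knockouts, against 2.47, 2.51, 1.56 and 1.61 CPM in controls (log2 fold change -1.06, SE 0.33, edgeR adjusted p = 0.196). Of the spindle checkpoint kinases, Bub1 was at 0.850, 0.951, 0.236 and 0.433 CPM in knockouts and 1.77, 1.18, 1.44 and 1.54 CPM in controls (log2 fold change -1.31, SE 0.42, edgeR adjusted p = 0.211). In both genes every knockout lay below every control. Ttk, the kinase that starts the checkpoint, had a log2 fold change of -1.21, and Bub1b, which holds back the anaphase-promoting complex, one of -0.28, with groups that overlapped in both.

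Among the kinetochore genes, Cenpe, a motor that moves chromosomes to the spindle equator, was at 6.80, 4.53, 4.65 and 3.77 CPM in knockouts, against 9.07, 8.15, 4.62 and 5.15 CPM in controls, and knockout 139 lay above controls 138 and 11 (log2 fold change -0.60, SE 0.25, edgeR adjusted p = 0.272). Cenpf, Spc25 and Ndc80 had log2 fold changes of -1.10, -1.19 and -0.47. All 6 genes of spindle motors and microtubule factors reached an unadjusted p under 0.05 without 138-V, with log2 fold changes between -1.33 and -0.66.

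Prc1 bundles the microtubules of the central spindle (ENSMUSG00000038943, chr7:80294450-80316259) and was at 3.47, 2.63, 1.77 and 1.73 CPM in knockouts, against 7.48, 5.50, 4.50 and 4.95 CPM in controls (log2 fold change -1.33, SE 0.27, edgeR adjusted p = 0.140). Kif23, a motor of the same structure, was at 5.03, 3.88, 4.07 and 3.58 CPM in knockouts and 7.18, 8.50, 13.1 and 5.62 CPM in controls (log2 fold change -0.78, SE 0.19, edgeR adjusted p = 0.157). No knockout reached a control in either gene. Control 138 was the highest library for Kif23.

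Kif11, the motor that pushes the spindle poles apart, was at 5.53, 4.17, 2.89 and 3.28 CPM in knockouts, against 8.36, 5.92, 4.25 and 4.75 CPM in controls (log2 fold change -0.69, SE 0.27, edgeR adjusted p = 0.247), and knockout 139 lay among the controls. Kif20a, a motor of the late spindle, was at 3.47, 1.68, 1.18 and 2.29 CPM in knockouts and 5.42, 4.39, 2.50 and 2.95 CPM in controls (log2 fold change -0.99, SE 0.35, edgeR adjusted p = 0.235), again with knockout 139 among the controls. Of the exon bases of Kif20a, 29.3% also belong to Cdc23 on the opposite strand, and as no source used here names the strand setting of the counting, whether reads of Cdc23 (43.9 to 64.5 CPM of total counts in fat) entered its counts was not tested.

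The cytokinesis genes include the 1 member above 0. Racgap1, which with Kif23 forms the centralspindlin complex, was at 6.02, 5.19, 4.12 and 3.77 CPM in knockouts and 8.48, 7.04, 3.68 and 5.69 CPM in controls (log2 fold change -0.57, SE 0.21, edgeR adjusted p = 0.237). Ect2, the exchange factor that starts furrowing, had a log2 fold change of -0.94. Anln, the actin-binding protein anillin, was the 1 member that was not lower, at 22.6, 23.8, 21.3 and 17.6 CPM in knockouts and 21.8, 20.5, 12.9 and 16.5 CPM in controls (log2 fold change 0.12, SE 0.13, edgeR adjusted p = 0.685), and it is also the G2/M member with the second highest level per exon length in fat.

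The gene of the anaphase activator Cdc20 was at 0.921, 1.17, 0.412 and 0.989 CPM in knockouts, against 2.00, 1.95, 1.87 and 1.61 CPM in controls (log2 fold change -1.10, SE 0.33, edgeR adjusted p = 0.195), and no knockout reached a control. Ube2c, the ubiquitin-conjugating enzyme of the same machinery, gave -0.48 on the log2 scale. Mki67, which coats mitotic chromosomes and is the common marker of dividing cells (ENSMUSG00000031004, chr7:135689784-135716361), was at 21.1, 16.5, 14.6 and 11.2 CPM in knockouts, against 42.5, 31.8, 23.4 and 25.0 CPM in controls (log2 fold change -1.07, SE 0.24, edgeR adjusted p = 0.157). Top2a, the topoisomerase that untangles sister chromatids, had a log2 fold change of -1.20 (adjusted p = 0.170), and in both genes the knockouts lay below all 4 controls.

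In all, 11 of the 43 members had every knockout below every control, all of them G2/M genes, against 3% of all genes. Without 138-V there were 16, again all G2/M genes, against 8.15% of all genes. No member had every knockout above every control, against 7.88% of all genes without 138-V and 3.36% with it.

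Among the S phase genes, 3 of the 4 that supply deoxynucleotides and 1 of the 6 of the replicative helicase, Mcm5, were lower at an unadjusted p under 0.05 without 138-V. Rrm2, the regulated subunit of ribonucleotide reductase, was at 2.27, 1.39, 1.36 and 1.54 CPM in knockout fat, against 5.01, 2.23, 4.25 and 3.68 CPM in control fat (log2 fold change -1.16, SE 0.31, edgeR adjusted p = 0.174). Knockout 139 lay just above control 137, and the other knockouts lay below every control. Rrm1, the catalytic subunit, was at 22.9, 23.2, 20.3 and 22.7 CPM in knockouts and 29.7, 22.6, 36.4 and 28.1 CPM in controls (log2 fold change -0.27, SE 0.11, edgeR adjusted p = 0.256), and control 137 lay within the range of the knockouts.

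Tk1, the thymidine kinase of dividing cells, was at 0.779, 0.439, 0.530 and 1.36 CPM in knockouts and 2.06, 1.11, 1.25 and 2.14 CPM in controls (log2 fold change -1.18, SE 0.41, edgeR adjusted p = 0.227), from few counts. Tyms, thymidylate synthase, had a log2 fold change of -0.15. The median of these 4 genes was -0.71 and 3 of them had an unadjusted p under 0.05.

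The 6 Mcm genes, whose products form the helicase ring, had a median log2 fold change of -0.11. Mcm5 stood out at 4.68, 5.56, 3.59 and 3.83 CPM in knockouts, against 9.36, 5.36, 4.56 and 5.62 CPM in controls (log2 fold change -0.63, SE 0.24, edgeR adjusted p = 0.245), with control 131 well above the other 7 libraries. Mcm2 was at 5.60, 4.75, 3.71 and 6.61 CPM in knockouts, against 7.71, 4.88, 8.93 and 6.76 CPM in controls (log2 fold change -0.32, SE 0.23, edgeR adjusted p = 0.495), and the groups overlapped. Mcm6 was at 13.3, 14.8, 12.3 and 13.8 CPM in knockouts, against 15.4, 12.9, 19.7 and 16.1 CPM in controls (log2 fold change -0.13), with control 138 the highest. Mcm3, Mcm4 and Mcm7 lay within -0.10 to -0.028 on the log2 scale.

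The clamp gene Pcna was at 21.2, 24.1, 19.5 and 25.7 CPM in knockouts and 26.0, 24.6, 23.3 and 25.9 CPM in controls (log2 fold change -0.18, SE 0.10, edgeR adjusted p = 0.419). E2f1, the transcription factor that opens S phase, was at 8.93, 6.51, 7.72 and 5.31 CPM in knockouts, against 9.72, 9.89, 2.75 and 7.43 CPM in controls (log2 fold change -0.34, SE 0.19, edgeR adjusted p = 0.401). In both genes the groups overlapped, and control 138 held the lowest E2f1 value of the 8 fat libraries. No S member separated the genotypes completely.

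With all 8 libraries the members kept their directions and the lowest adjusted p of a member in edgeR was 0.588, shared by Aurkb, Birc5, Bub1, Ccna2, Cdc20, Cdk1, Cenpf, Foxm1, Kif23, Melk, Mki67, Prc1, Rrm2, Top2a and Tpx2. Values moved by over 1.5 times for Mcm3 (-0.033 with all libraries), Mcm6 (-0.24), Mcm7 (-0.0095), Tyms (-0.36), E2f1 (-0.065), Aurka (-0.36), Anln (0.25) and Ube2c (-0.18). Those of Cdk1, Prc1, Mki67 and Rrm2 were -1.11, -1.23, -0.96 and -1.21 with all libraries.

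**Figure D2:**
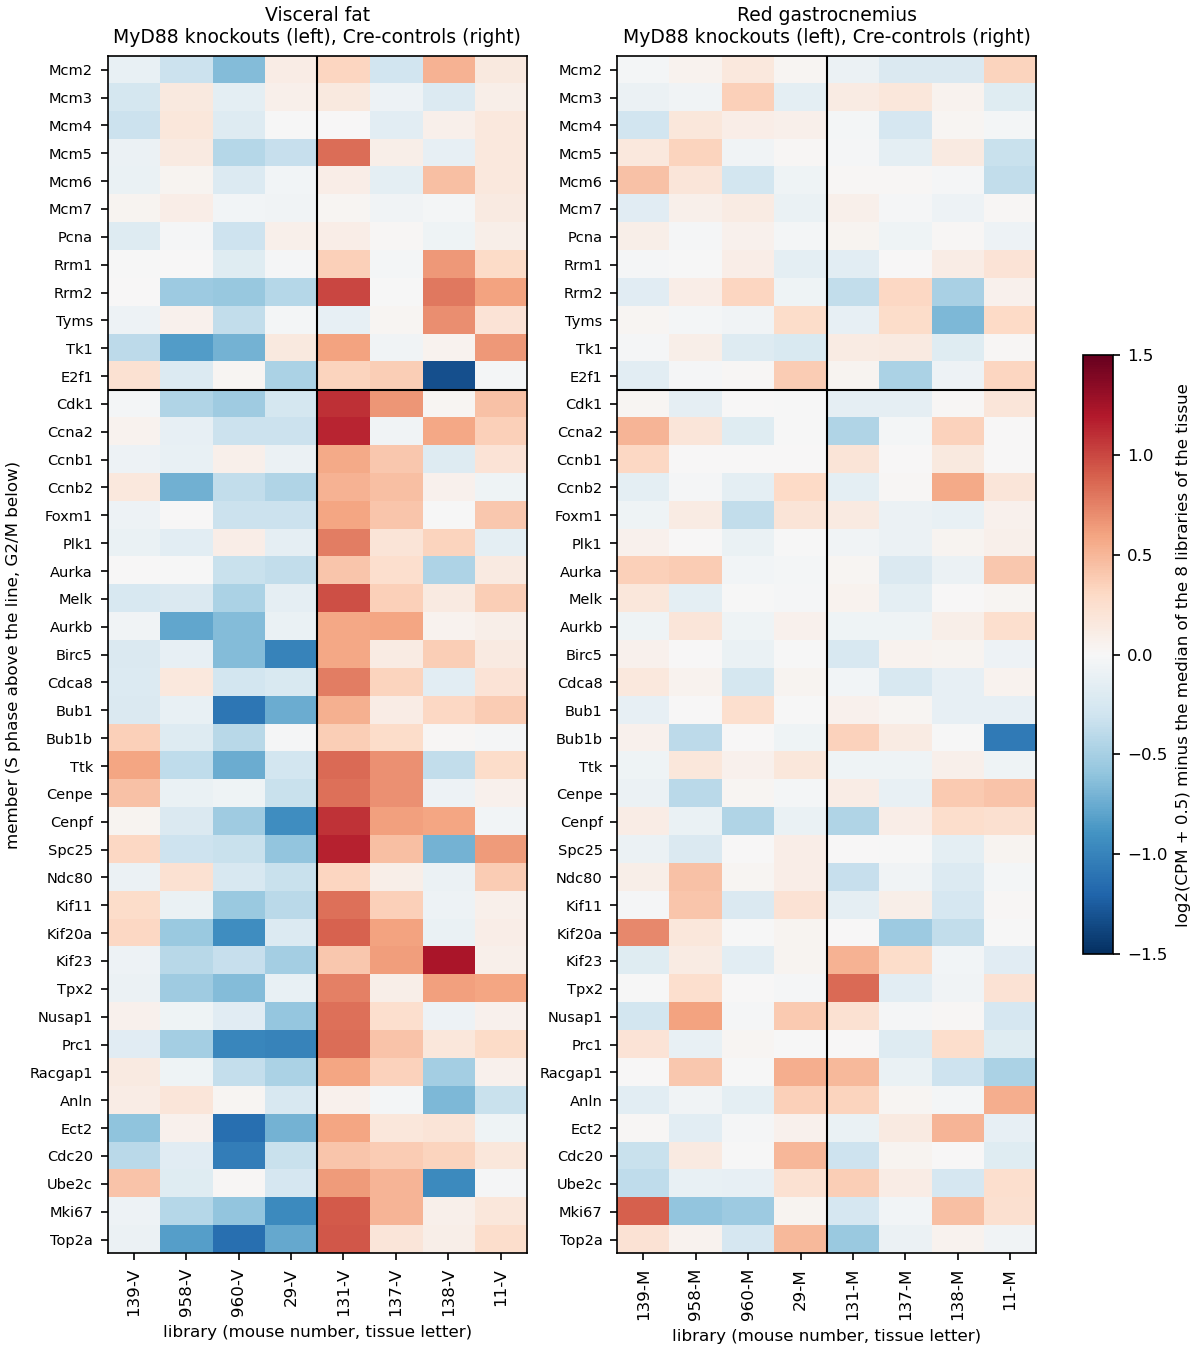
Level of each member in each library as log2(CPM + 0.5) minus the median of the 8 libraries of the tissue, fat on the left and muscle on the right, with the 4 knockouts left of the 4 controls in each panel. In fat, control 131-V is the highest library for 31 of 43 members and knockout 960-V the lowest for 20, while in muscle no library is the highest for more than 9 members or the lowest for more than 10.

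The mice of 1 genotype differed widely in fat. Summed over the 31 G2/M members, levels were 134, 109, 91.6 and 88.0 CPM in knockouts and 221, 168, 135 and 141 CPM in controls, so every knockout lay below every control and knockout 139 lay just below control 138. The means were 106 ± 20.8 CPM in knockouts and 166 ± 39.1 CPM in controls (SD, n = 4 each). The sums of the 12 S members were 129, 139.8, 118 and 134 CPM in knockouts and 160.0, 135, 158 and 156 CPM in controls, with control 137 among the knockouts. The ratio of the G2/M sum to the S sum was 1.04, 0.781, 0.777 and 0.654 in knockouts, against 1.38, 1.25, 0.851 and 0.907 in controls, and knockout 139 was above controls 138 and 11.

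Control 131-V had the highest level of the 8 fat libraries in 31 of 43 members and was above the median of the tissue in 42. Leaving it out as well as 138-V gave 12 of 31 G2/M members and 1 of 12 S members lower at an unadjusted p under 0.05, against 4.68% of all genes, and a median of -0.74 over the G2/M members. With 138-V kept, leaving out 131-V gave 14 of 31 and 2 of 12, against 4.19% of all genes, and a G2/M median of -0.61. Leaving out knockout 29 as well as 138-V gave 17 of 31 G2/M members, against 8.72% of all genes. The log2 fold change of Cdk1 was -1.05, that of Prc1 -1.13 and that of Mki67 -0.85 without both 131-V and 138-V.

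**Figure D3:**
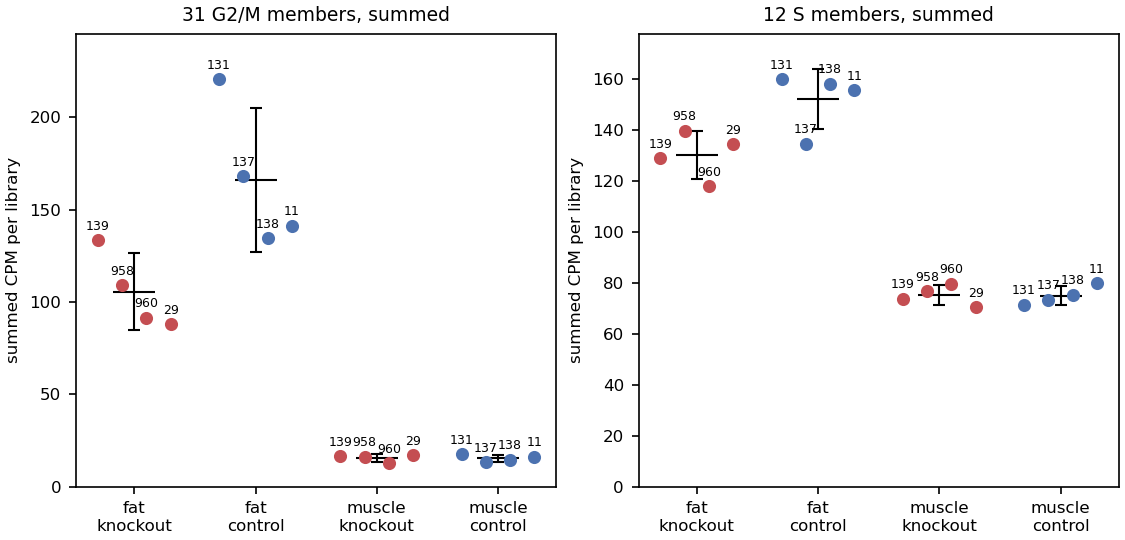
Summed CPM of the 31 G2/M members (left) and the 12 S members (right) in each library, by tissue and genotype, with the mouse number at each point and the mean with its SD over 4 mice in black. In fat the G2/M sums are 88.0 to 134 CPM in knockouts and 135 to 221 CPM in controls, and in muscle they are 12.6 to 17.0 CPM in knockouts and 13.2 to 17.5 CPM in controls.

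Other genes of the cycle, chosen with earlier results of these data known, showed a similar order of phases in fat without 138-V. Of 40 further G2/M genes tested, 38 were below 0 with a median log2 fold change of -0.65, and 25 had an unadjusted p under 0.05, all lower. Iqgap3, a scaffold protein, was at 2.41, 1.24, 0.884 and 1.36 CPM in knockouts and 5.71, 3.83, 2.69 and 3.55 CPM in controls (log2 fold change -1.58, SE 0.33, edgeR adjusted p = 0.140). Espl1, the separase that cuts cohesin, Pbk, a mitotic kinase, and Hmmr, a spindle factor, had log2 fold changes of -1.16, -2.42 and -1.47.

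Of 30 further S phase genes tested, 24 were below 0 with a median of -0.25, and 8 had an unadjusted p under 0.05. Uhrf1, which carries DNA methylation through replication, was at 2.41, 1.54, 1.94 and 1.73 CPM in knockouts, against 6.24, 4.39, 3.31 and 4.15 CPM in controls (log2 fold change -1.37, SE 0.23, edgeR adjusted p = 0.105), with no overlap. Clspn, a replication checkpoint mediator, Cdc45, a helicase cofactor, and Fen1, the flap nuclease, had log2 fold changes of -1.40, -0.49 and -0.61.

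The 12 genes of G1 cyclins and their kinases had a median of -0.17, with 10 below 0 and 3 at an unadjusted p under 0.05. Ccnd1, cyclin D1, was at 12.6, 14.1, 12.1 and 18.2 CPM in knockouts, against 26.9, 23.8, 89.7 and 22.5 CPM in controls (log2 fold change -0.77, SE 0.14, edgeR adjusted p = 0.140), and control 138 stood far above all others. E2f2, Ccnd3 and Ccne1 had log2 fold changes of -0.58, -0.18 and -0.49.

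The genes that brake the cycle did not lean to a side, with 8 of 15 below 0 and a median of -0.01. Cdkn1a, the inhibitor p21, was at 6.38, 6.66, 8.84 and 6.49 CPM in knockouts and 23.8, 16.6, 9.24 and 12.4 CPM in controls (log2 fold change -1.31, SE 0.22, edgeR adjusted p = 0.131), so it was lower in every knockout than in every control. The log2 fold change of Ccng2, an atypical cyclin of resting cells, was -0.46, and the inhibitor genes Cdkn1c and Cdkn2b had 0.29 and -0.36. None of the genes of these 4 lists passed an adjusted p of 0.05 in edgeR without 138-V, where at an unadjusted p under 0.05 there were 25, 8, 3 and 2 that were lower, against 8.72% of all genes, and none higher. Of those named, DESeq2 gave an adjusted p under 0.05 to Iqgap3, Espl1, Hmmr, Uhrf1, Clspn, Ccnd1, Cdkn1a and Ccng2, all lower. It called 1.45% of all genes lower in this comparison. The genes were named for the smallest edgeR p values of their lists in the same libraries, so their share does not describe the full lists.

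Markers of other cell types were compared between the genotypes in fat as well, and none passed an adjusted p of 0.05 in edgeR. Summed over 6 erythroid markers, which include globin genes, levels were 95.2, 184, 97.6 and 101 CPM of total counts in knockout fat, against 296, 276, 132 and 124 CPM in control fat. Controls 131-V and 137-V were the highest in these markers and in the G2/M sum. Other libraries differed in order. Knockout 958-V was above controls 138-V and 11-V in these markers and below them in the G2/M sum. Knockout 139-V was the lowest in these markers and the highest knockout in the G2/M sum. All 4 of these markers that could be tested were lower without 138-V at an unadjusted p under 0.05. The 9 macrophage markers were all below 0 with none at that level, and summed to 464, 926, 478 and 870.4 CPM in knockouts and 739, 670.5, 627 and 974 CPM in controls.

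T cell markers summed to 6.48, 8.20, 8.42 and 6.63 CPM in knockouts, against 13.6, 5.29, 6.65 and 7.23 CPM in controls, highest in 131-V, and 2 of 4 tested were below 0 without 138-V. B cell markers summed to 3.27, 5.14, 3.96 and 3.82 CPM in knockouts, against 5.02, 5.56, 2.64 and 6.36 CPM in controls, with 4 of 4 tested below 0 and 1 of them at an unadjusted p under 0.05. Endothelial markers summed to 818, 755, 875 and 778 CPM in knockouts and 723, 738, 465 and 702 CPM in controls, without overlap. Of the 6 genes, 4 were above 0 and 2 below 0 without 138-V, with 3 higher at an unadjusted p under 0.05, and all 6 were above 0 with all libraries. Markers of fibroblasts and adipocyte progenitors were at 3018, 3897, 1995 and 3566 CPM in knockouts, against 3169, 3125, 6940.4 and 4462 CPM in controls, with 5 of 7 below 0 and 1 of them at that level. Plasma cell markers summed to 188, 197, 223 and 249.8 CPM in knockouts and 151, 163, 376 and 208 CPM in controls, and of 4 tested without 138-V, 2 were lower and 1 was higher at an unadjusted p under 0.05.

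Markers of skeletal muscle fibres summed to 16956, 4749.9, 1185 and 9658 CPM in knockout fat and 3731, 1602, 8664 and 4237 CPM in control fat, with 139-V the highest and 960-V the lowest. All 8 were above 0 without 138-V, with a median log2 fold change of 1.17 and none at an unadjusted p under 0.05. Of the adipocyte markers 6 of 8 were below 0, with 1 lower at that level, and of the smooth muscle markers 6 of 7 were above 0, with 1 higher. No marker of these lists was at 0 in all fat libraries. The part of these cell types in the levels of the members was not tested.

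In muscle, the tissue that the genotype label of the knockouts names, the members showed no common direction. Of the macrophage markers, 8 of 8 tested were above 0 there, with a median log2 fold change of 0.40 and 3 at an unadjusted p under 0.05. Their lowest adjusted p in edgeR was 0.747. Other marker lists also lay on 1 side in muscle. Above 0 were 7 of 7 fibroblast and adipocyte progenitor and 6 of 6 endothelial markers, and below 0 were 5 of 5 smooth muscle markers. The filter on low counts left 20 of 43 members, 11 of S phase and 9 of G2/M. None passed an adjusted p of 0.05 in edgeR, and none did with DESeq2 or limma voom, where 2 of 14183 genes (0.0141%) passed in edgeR. At an unadjusted p under 0.05 there was 1 member, which was higher, against 3.17% of all genes that were higher, and none was lower, against 1.87%. Of the 20 members, 9 were below 0, against 49.2% of all genes. The median log2 fold change was 0.09 over the S members and -0.04 over the G2/M members, against 0.00 over all genes.

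That 1 member was Kif20a, at 1.24, 0.688, 0.554 and 0.585 CPM in knockout muscle and 0.561, 0.228, 0.317 and 0.554 CPM in control muscle (log2 fold change 0.88, SE 0.38, edgeR adjusted p = 0.949). Knockout 139 was well above the rest, and the other 3 knockouts were level with or just above controls 131 and 11. Its overlap with Cdc23, described for fat, applies here too, and Cdc23 had a log2 fold change of -0.04 and 18.4 to 21.2 CPM of total counts in muscle. The 1 member whose groups did not overlap in muscle was Ndc80, against 1.78% of genes with every knockout above every control, with none of the opposite order, against 1.59%. It was too low to be tested, at 0.177, 0.367, 0.151 and 0.180 CPM in knockouts and 0, 0.114, 0.0528 and 0.123 CPM in controls. Racgap1 was at 0.710, 1.10, 0.705 and 1.26 CPM in knockouts and 1.19, 0.626, 0.475 and 0.369 CPM in controls, with wide overlap (log2 fold change 0.56, SE 0.36, edgeR adjusted p = 0.949).

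Mcm5 was at 1.24, 1.47, 1.01 and 1.08 CPM in knockout muscle, against 1.05, 0.911, 1.21 and 0.738 CPM in control muscle (log2 fold change 0.29, SE 0.24, edgeR adjusted p = 0.950), and Mcm6 at 5.44, 4.49, 3.12 and 3.69 CPM, against 3.93, 3.93, 3.85 and 2.89 CPM (log2 fold change 0.19, SE 0.18, edgeR adjusted p = 0.953). Both overlapped. Rrm2 was at 0.710, 0.963, 1.21 and 0.810 CPM in knockouts and 0.561, 1.20, 0.475 and 0.923 CPM in controls (log2 fold change 0.23, SE 0.32, edgeR adjusted p = 0.971), and Mki67 at 1.54, 0.229, 0.252 and 0.630 CPM in knockouts and 0.421, 0.569, 1.003 and 0.800 CPM in controls (log2 fold change -0.17, SE 0.55, edgeR adjusted p = 0.989). Among the knockouts, mouse 139 had the highest muscle level of Mki67.

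Cdk1, the 3 cyclins, Foxm1, Plk1, Melk, the passenger complex genes, Bub1, Ttk, the kinetochore genes, Kif23, Nusap1, Prc1, Ect2, Cdc20, Top2a and E2f1 were too low in muscle to be tested. Cdk1, for example, was at 0.0591, 0, 0.0504 and 0.0450 CPM in knockouts and 0, 0, 0.0528 and 0.123 CPM in controls, so a difference was not detectable at this depth.

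Of the 4 further lists, 20 other S phase, 17 other G2/M, 11 G1 and 15 brake genes could be tested in muscle, and none passed an adjusted p of 0.05 in edgeR. At an unadjusted p under 0.05 there was 1 other S phase gene that was higher and 1 brake gene that was lower. Their median log2 fold changes were 0.09, 0.07, 0.13 and 0.02.

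An interaction term fitted to all 16 libraries tested whether the genotype effect in fat differed from that in muscle. Of the 43 members, 39 had an estimate below 0, against 54.4% of all 17084 genes, and 7 had an unadjusted p under 0.05 with a lower value, against 4.47% of all genes. None had one with a higher value, against 2.72%. These 7 were Mcm5 and Rrm2 of S phase and Top2a, Ndc80, Kif20a, Cdc20 and Prc1 of G2/M. Of these, Top2a, Ndc80, Cdc20 and Prc1 were too low in muscle to be tested there. Their interaction estimates rest on few muscle counts, 1 to 15 per muscle library for Top2a. Rrm2 gave an interaction of -1.44 (SE 0.45, edgeR adjusted p = 0.653) and Top2a one of -1.79 (SE 0.57, adjusted p = 0.653). No gene in the series passed an adjusted p of 0.05 in edgeR, and DESeq2 called 13 genes and no member, so the genotype effect on the members was not shown to differ between the tissues.

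Between the tissues themselves, the G2/M members had a larger median difference than the S members. Values here are RPKM, counts scaled by exon length and by library size with TMM factors over all 16 libraries, which allow genes to be compared, as mean ± SD over 8 mice of both genotypes. The G2/M members had a median of 0.434 RPKM in fat and 0.0609 RPKM in muscle, where 19 of 31 were under 0.1 RPKM. The S members had a median of 1.53 RPKM in fat and 1.15 RPKM in muscle. S members made up 42.0 to 60.4% of the summed CPM of all members in fat libraries and 80.3 to 86.3% in muscle libraries.

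Of the 43 members, 40 passed an adjusted p of 0.05 for fat against muscle, as did 79.3% of all genes tested. Higher in fat were 35 members, 28 of G2/M and 7 of S phase, against 43.7% of all genes, and lower in fat were 5, against 35.6% of all genes. The median log2 fold change, fat over muscle, was 2.51 over the G2/M members and 0.34 over the S members, against 0.16 over all genes. In 26 members every fat library lay above every muscle library, against 26.9% of all genes, and in 4 every fat library lay below, against 25.2%. Leaving out any 1 mouse, 138 included, left 40 members past the threshold.

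The scaling of libraries weighs heavily on this comparison. With total counts and no TMM factor, an alternative chosen after seeing the data, the median over all genes was 1.36 on the log2 scale, against 0.16 with TMM, and the medians were 3.66 over the G2/M and 1.54 over the S members. That scaling called 38 members higher in fat, against 79.8% of all genes, and 2 lower, against 11.1%. Directions below are those with TMM, and the log2 fold changes of Mcm2 and Tpx2 turned to 0.19 and 0.40 with total counts, neither past the threshold.

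The largest differences among the members were those of Cdk1, at 0.352 ± 0.180 RPKM in fat and 0.0127 ± 0.0129 RPKM in muscle (log2 fold change 4.60, SE 0.40, edgeR adjusted p = 1.50e-08), and Ccnb1, at 0.202 ± 0.0566 RPKM in fat and 0.0110 ± 0.0166 RPKM in muscle (log2 fold change 4.13). E2f1 was the S member that rose most in fat, at 1.53 ± 0.511 RPKM, against 0.0989 ± 0.0624 RPKM in muscle (log2 fold change 3.90, SE 0.38, edgeR adjusted p = 5.81e-08). Mki67 was at 1.53 ± 0.669 RPKM in fat and 0.103 ± 0.0670 RPKM in muscle (log2 fold change 3.83, SE 0.32, edgeR adjusted p = 1.36e-08). In all 4 genes each fat library was above each muscle library.

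The 5 members lower in fat with TMM were Rrm1 and Tk1 of nucleotide supply, the helicase gene Mcm2 and the spindle genes Aurka and Tpx2. With total counts, Rrm1 (-0.44) and Aurka (-0.66) were still called lower, and Tk1 (-0.41) did not pass. Rrm1 was at 1.54 ± 0.311 RPKM in fat, against 4.83 ± 0.420 RPKM in muscle (log2 fold change -1.66, SE 0.093, edgeR adjusted p = 5.46e-11), and was the second highest member in muscle after Pcna. Tk1 was at 0.153 ± 0.0814 RPKM in fat and 0.446 ± 0.0601 RPKM in muscle (log2 fold change -1.60, SE 0.25, edgeR adjusted p = 1.47e-05). Mcm2 was at 0.580 ± 0.160 RPKM in fat and 1.17 ± 0.170 RPKM in muscle (log2 fold change -1.02, SE 0.16, edgeR adjusted p = 1.30e-05).

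Tyms, the other gene of nucleotide supply that was called, was higher in fat, at 0.672 ± 0.169 RPKM, against 0.207 ± 0.0650 RPKM in muscle (log2 fold change 1.68, SE 0.21, edgeR adjusted p = 1.61e-06), with every fat library above every muscle library. Rrm2, whose product pairs with that of Rrm1, was at 0.646 ± 0.335 RPKM in fat and 0.467 ± 0.144 RPKM in muscle and did not pass with TMM (log2 fold change 0.35, SE 0.28, edgeR adjusted p = 0.264), while with total counts it did (log2 fold change 1.55). Aurka, the kinase of the spindle poles, was at 0.491 ± 0.137 RPKM in fat and 1.76 ± 0.361 RPKM in muscle (log2 fold change -1.84, SE 0.19, edgeR adjusted p = 9.90e-08), and Tpx2, which activates that kinase, at 0.479 ± 0.196 RPKM in fat and 0.805 ± 0.254 RPKM in muscle (log2 fold change -0.81, SE 0.20, edgeR adjusted p = 0.00163). For Aurka every fat library lay below every muscle library, and for Tpx2 the tissues overlapped. The kinase gene Aurkb had the direction opposite to both, at 0.346 ± 0.153 RPKM in fat and 0.0200 ± 0.0246 RPKM in muscle.

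**Figure D4:**
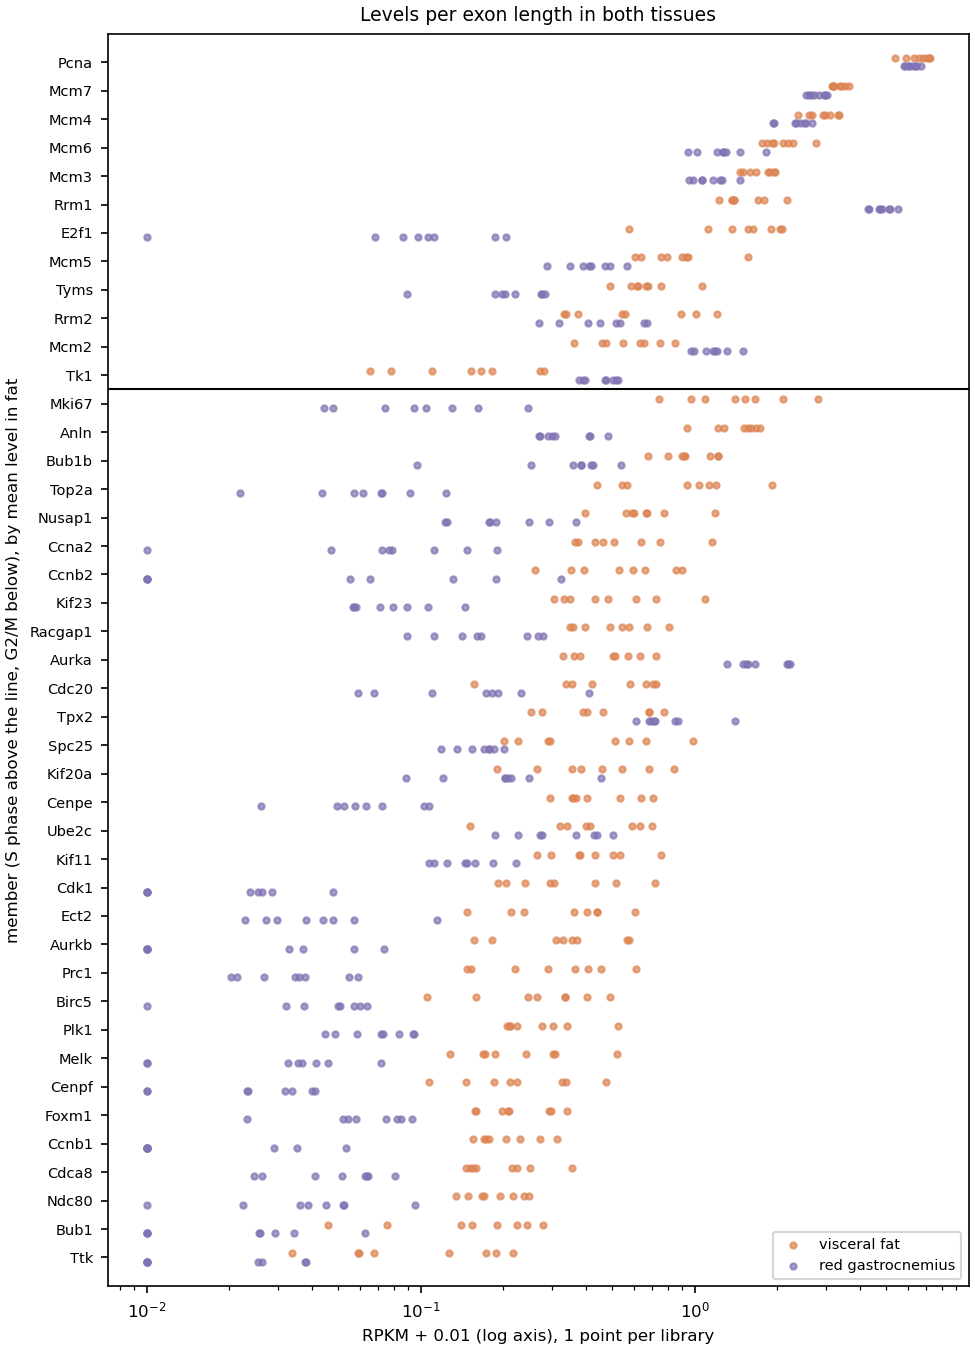
RPKM + 0.01 of each member in each of the 16 libraries on a log axis, orange for visceral fat and purple for red gastrocnemius, with S members above the line and G2/M members below, ordered by mean level in fat. For 22 of the 31 G2/M members every fat library lies above every muscle library, while Pcna, Mcm4 and Rrm2 overlap and Rrm1, Tk1, Mcm2 and Aurka are higher in muscle, of which Mcm2 turns to 0.19 (log2, fat over muscle) with total counts.

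Pcna was the highest member in both tissues, at 6.53 ± 0.641 RPKM in fat and 6.17 ± 0.308 RPKM in muscle, and the difference did not pass the test with TMM (log2 fold change 0.081, SE 0.067, edgeR adjusted p = 0.274), while with total counts Pcna was called higher in fat (log2 fold change 1.28). Mcm7 and Mcm4 followed in fat, at 3.33 ± 0.181 and 2.91 ± 0.349 RPKM, against 2.78 ± 0.191 and 2.32 ± 0.270 RPKM in muscle. Every fat library was above every muscle library for Mcm7 and not for Mcm4. Of the 6 Mcm genes, 5 rose in fat, by 0.26 (Mcm7) to 1.06 (Mcm5) on the log2 scale, and Mcm2 fell, though not with total counts.

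Ube2c did not pass the tissue test with TMM and did with total counts (log2 fold changes 0.41 and 1.57), at 0.434 ± 0.183 RPKM in fat and 0.328 ± 0.114 RPKM in muscle. Of its exon bases, 22.8% also belong to Tnnc2, the fast troponin C gene, on the opposite strand, which was at 14.5 to 180 CPM of total counts in fat and 4461 to 5910 CPM in muscle. Whether reads of Tnnc2 entered the counts of Ube2c was not tested. Other members with over 10% of their exon bases in an opposite-strand gene were Kif20a, Ccna2 (12.5%, Exosc9) and Prc1 (11.1%, Rccd1). For knockout over control in fat without 138-V, the partner genes of these members had log2 fold changes of 0.01, -0.18 and 0.03. Tnnc2, the partner of Ube2c, had a log2 fold change of 1.06 in that comparison and 0.66 with all fat libraries.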

How the data were processed

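Gene counts were deposited by the authors for 55536 Ensembl genes in 16 libraries, as raw counts with no scaling; the libraries are stranded and depleted of ribosomal RNA, per the labels' protocols. The tools were DESeq2 1.22.2, featureCounts 1.6.3 and STAR 2.7.0f on GRCm38, per the submitters' processing notes. Annotation release, strand setting and the handling of multiply mapped reads: not given in the sources used here. From these counts, genotype was tested within muscle, fat and fat without 138-V, and tissue and the genotype by tissue interaction over all 16 libraries, with edgeR 4.0.16 under R 4.3.3 (quasi-likelihood test, TMM scaling, filterByExpr, robust spread), adjusted by Benjamini-Hochberg over all genes tested and called under 0.05. An SE comes from the fold change and its F value. CPM use TMM factors within a tissue, RPKM those over all libraries and the union of exons, and marker sums are CPM of total counts without TMM. Genotype values of members are descriptions beside all genes, with no test of the list.

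The members, their phases, the other gene lists and the rule for named genes were chosen with earlier results of these data known. The rule took any member past a genotype test, 4 members per phase with the smallest p in fat without 138-V, 2 per phase in muscle, the first member of each role, and 4 genes of each further list. Others named with a fold change only, and Anln, Ube2c, Aurka, Tpx2, Tyms, Rrm1 and Tk1 in the tissue comparison, were picked after their values were seen. Muscle and fat of the same subject number were taken to come from 1 animal. The main tissue and interaction fits had no mouse term, so libraries of the same mouse counted as independent there. A block by mouse was run as an alternative. Deviations of paired libraries from their group means correlated at -0.02 to 0.04 in controls and 0.10 to 0.15 in knockouts over 17084 genes. Alternatives were other scalings, filters and tools (DESeq2 1.42.0, limma 3.58.1), 1 fit of both tissues, a replicate block by mouse, total counts for tissue (chosen after seeing the data), and fits that left out libraries. The procedure was tested on simulated data. No pair of replicates agreed within sampling noise in a chi-square comparison, so each counted as 1 sample.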

Additional observations from a re-analysis of the deposited data

Results flagged for a closer look

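Among 130 groups of 4 libraries, 12 held a value whose gap to the nearest of the others took up more of the range of the group than the 95% critical value of Dixon's test allows, and chance gives about 1 such group in 20. Of the members, Mcm6 stood apart in control 11-M in muscle, at 2.89 CPM against 3.85 to 3.93 CPM in the other controls, and Rrm1 in knockout 960-V in fat, at 20.3 CPM against 22.7 to 23.2 CPM in the other knockouts. The G2/M sum of knockout 960-M in muscle was 12.6 CPM, against 16.4 to 17.0 CPM in the other knockouts.

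The other such values are marker sums in fat, in CPM of total counts. Library 138-V stood apart in markers of smooth muscle (23450 CPM), bladder epithelium (2156 CPM), the female reproductive tract (265 CPM), mammary epithelium (851 CPM), mesothelium (534 CPM), satellite cells (13.2 CPM) and gut epithelium (6.57 CPM), all above the other 3 controls, and in endothelial markers (465 CPM), below them at 702 to 738 CPM. Some of these sums came mostly from few genes. In 138-V these were Krt18 (535 CPM) and Krt8 (311 CPM) for mammary epithelium, and Krt19 (267 CPM) and Upk3b (162 CPM) for mesothelium. Chodl (12.5 CPM) made up most of the satellite cell sum and Lgr5 (5.14 CPM) most of the gut sum. Of the other genes of the mammary, mesothelial, satellite cell and gut lists, Krt14, Elf5, Msln, Gpm6a, Cdh15 and Muc2 were also higher there than in every other control. So were Pax7 and Myf5, at only 0.0755 CPM each. Csn3, Lrrn4, Wt1, Myod1, Calcr, Vil1 and Fabp2 were not. Wap, Csn2, Cdx1 and Cdx2 were at 0 in every library, so they could not differ. Knockout 958-V stood apart in erythroid markers at 184 CPM, against 95.2 to 101 CPM in the other knockouts.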

How the results depend on the processing

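In fat without 138-V, the 43 members kept their directions under every alternative run except Mcm7 (0.023 without 11, 0.0026 without 29), and no member was called in a genotype comparison or the interaction when a library was left out. Counts of called genes moved most. DESeq2 called 9 genes in muscle, 54 in fat, 334 in fat without 138-V and 13 in the interaction. With no filter on low counts 80 were called in muscle and 161 in fat without 138-V, and with a filter of 1 CPM in 4 libraries 1 and 3. Limma voom called 0 genes in fat, voom with quality weights called 9, and 1 fit of both tissues called 6, a fit that called 65 without 138-V, and the interaction gave 3 without 138-V. DESeq2 called 1 member in fat and 5 in fat without 138-V, where no filter gave 2 and 1 fit of both tissues gave 1. With all fat libraries and quality weights, 26 G2/M members were lower at an unadjusted p under 0.05, against 8.47% of all genes. The G2/M median in muscle was 0.16 with voom, 0.11 with quality weights, -0.13 with the CPM filter and 0.28 without 131-M and 11-M, so its sign depended on the setting.

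Leaving out 1 library at a time gave 1 to 10 genes in muscle, with medians of 0.025 to 0.095 (S) and -0.11 to 0.16 (G2/M). In fat it gave 0 to 6 genes, 1 to 5 S and 14 to 26 G2/M members lower at an unadjusted p under 0.05, against 2.21 to 8.72% of all genes, and medians of -0.39 to -0.22 and -1.11 to -0.61. In fat without 138-V it gave 1 to 29 genes, 1 to 5 S members (1 without 131, 2 without 11 or 960), 12 to 28 G2/M members (12 without 131, 17 without 29), against 4.68 to 9.21% of all genes, and medians of -0.25 to -0.15 and -0.97 to -0.74. For tissue it gave 13248 to 14096 genes, 40 members each time, and medians of 0.23 to 0.46 and 2.20 to 2.76.

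With the mouse as replicate block, 13418 genes and 40 members were called between tissues, with medians of 0.33 and 2.51, and the interaction called 0 genes, so the block changed no count of called members. Total counts with no TMM factor, chosen after seeing the data, gave tissue medians of 1.54 (S) and 3.66 (G2/M), and 0.19 for Mcm2.

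Some genes changed sign when 1 library was left out. In muscle their ranges were -0.053 to 0.16 for Cdkn1c, -0.91 to 0.13 for Mki67 and -0.029 to 0.40 for E2f2, and Iqgap3 was at -0.084 without 131-M and 11-M. In fat they were -0.34 to 0.094 for E2f1, -0.49 to 0.047 for Ccne1 and -0.18 to 0.036 for Ccnd3, with 0.072 for E2f1 and 0.032 for Ccne1 under voom. In the interaction they were -1.01 to 0.17 for E2f1 and -1.83 to 0.41 for Aurkb. The cause was not tested. Of all members, 4 changed sign in fat when a library was left out (E2f1, Mcm3, Mcm7 and Ube2c), 6 in muscle and 11 in the interaction. In muscle, 23 members fell below the filter on low counts.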
